A study of Mus musculus with 2 samples.

Results

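Hypoxia response and glycolysis genes are a set of 38 genes listed by name, which covers the oxygen-sensing machinery, the enzymes of glycolysis, the transporters and regulators of that pathway, and other targets of the hypoxia-inducible factors (HIF). They were read in subepithelial myofibroblasts of the mouse small bowel, stromal cells below the epithelium that contract and lay down matrix, taken from wild-type BALB/c animals. The cells were cultured for 1 day either without addition (the non-stimulated array) or with an eosinophil homogenate at 5 mg/ml (the stimulated array). RNA of 3 cultures was pooled for each condition and read on 1 whole-transcript array (GeneChip Mouse Gene 2.0 ST), so there is no replicate, no test and no error, and the number of arrays limits the precision. Each difference below is the stimulated minus the non-stimulated log2 value and describes these 2 pools. Of the 38 genes, 33 had a probeset paired with that gene alone, out of 22180 genes named on the array. Bnip3l, Aldoa and Ankrd37 shared their probesets with other genes in the annotation, and Gpi1 and Eno1 had none in it, so these 5 are not analysed here.

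HIF is a pair of an oxygen-labile alpha subunit, made from Hif1a or Epas1, and a stable partner, Arnt. In oxygen, prolyl hydroxylases (the Egln genes) mark the alpha subunit for destruction, and when oxygen or iron is short it persists and binds the letters ACGTG or GCGTG near its target genes. The targets raise glucose uptake, glycolysis and lactate export, and they also serve vessel growth, collagen hydroxylation, mitophagy and histone demethylation. The gut wall lies on a steep oxygen gradient, and its stroma meets low oxygen in inflammation.

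The arrays carried fibroblast transcripts. A background level was set where 95% of the 1407 probesets for chemosensory receptors (olfactory or vomeronasal) lay below it. It was 5.58 on the non-stimulated and 5.57 on the stimulated array. On 1 array or more, 14069 of the 22180 named genes passed it. All 12 fibroblast markers passed it, with log2 differences between -0.41 (Tagln) and 0.56 (Pdgfra). One label field names eosinophils as the source of both samples, while the other labels name myofibroblasts. Of 9 eosinophil markers with a value, 2 passed the background level, and the granule protein genes Epx (4.73 and 5.25) and Prg2 (4.75 and 4.32) were under it on both arrays. Markers of macrophages passed it for 4 of 8 genes, of epithelium for 4 of 8 and of endothelium for 3 of 5, none reading above 6.81. The part of these other cells in the differences was not tested. In RNA of whole cultures, fewer cells of a type and less RNA per cell cannot be told apart.

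Of the 33 genes, 32 were above background on both arrays. The other, Car9, lay just under it without homogenate and above it with homogenate. A difference was counted when it passed 1.2-fold, or 0.26 on the log2 scale. By that measure 3 of the 33 genes (9.09%) read higher on the stimulated array, against 6.11% of the 14069 genes above background, and none read lower, against 6.91%. The 3 genes were Egln3, Hif1a and P4ha2. No gene of the set passed 1.5-fold, as 0.796% of all genes did upwards and 0.64% downwards, or 2-fold, as 0.192% and 0.0426% did. Most of the set lay close to 0. Its median difference was 0.04, with 20 genes higher and 13 lower. Over all genes above background the median was 0.0016, with 50.2% higher and 48.2% lower. In the brightest of 4 sets by mean level, which holds 14 of the 33 genes, it was 0.019, with 57.0% higher. At a smaller threshold of 1.1-fold, 12 of 33 genes (36.4%) were higher, against 17.7% of all genes, and 3 (9.09%) were lower, against 18.6%.

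The 4 genes with the most extreme differences are shown by the 250 bases before their annotated start, from RefSeq on the build GRCm38.p6. They are the 3 genes of the set with the largest upward difference and the 1 with the largest downward difference. Capitals mark each match to ACGTG or GCGTG on the strand shown or, as its reverse complement, on the other strand. The letters CACGTG hold a match on both strands and are also the E-box bound by other factors. The window of Egln3 is chr12:54203875-54204124 on the minus strand, that of Hif1a chr12:73907617-73907866 on the plus strand, that of P4ha2 chr11:54100674-54100923 on the plus strand and that of Pfkp chr13:6648772-6649021 on the minus strand. All are written 5′ to 3′ on the strand of the gene.
Egln3: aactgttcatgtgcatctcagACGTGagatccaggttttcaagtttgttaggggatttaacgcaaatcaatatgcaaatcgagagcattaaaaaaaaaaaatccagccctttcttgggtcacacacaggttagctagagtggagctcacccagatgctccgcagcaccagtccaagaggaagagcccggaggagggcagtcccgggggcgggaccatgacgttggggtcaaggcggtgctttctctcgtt
Hif1a: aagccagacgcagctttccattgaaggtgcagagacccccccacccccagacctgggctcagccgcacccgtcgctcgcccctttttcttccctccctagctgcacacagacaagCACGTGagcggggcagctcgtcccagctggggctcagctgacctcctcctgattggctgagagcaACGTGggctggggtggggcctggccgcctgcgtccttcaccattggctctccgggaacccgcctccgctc
P4ha2: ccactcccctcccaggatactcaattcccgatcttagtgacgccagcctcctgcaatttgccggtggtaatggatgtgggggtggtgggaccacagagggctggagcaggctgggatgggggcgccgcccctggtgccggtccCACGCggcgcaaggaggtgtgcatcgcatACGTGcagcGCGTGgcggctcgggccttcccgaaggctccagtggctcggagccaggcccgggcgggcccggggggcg
Pfkp: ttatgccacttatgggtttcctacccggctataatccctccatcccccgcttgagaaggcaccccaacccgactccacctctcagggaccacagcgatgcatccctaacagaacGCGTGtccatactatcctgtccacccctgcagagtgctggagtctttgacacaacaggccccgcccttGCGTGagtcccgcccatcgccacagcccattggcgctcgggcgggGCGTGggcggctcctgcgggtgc
Egln3 held 1 match, whose first letter lay 229 bases before the start. Hif1a held 3, of which 2 overlapped in a CACGTG that began 135 bases before the start, and the other began 70 bases before it. P4ha2 held 3, at 107, 78 and 69 bases before the start. Pfkp, the gene with the lowest difference, also held 3, at 136, 68 and 23 bases. The promoter table held 34 of the 38 genes, with 52 windows. At least 1 window with a match was found for 30 of the 34 genes (88.2%), against 58.4% of 10956 genes above background and 41.5% of 27025 genes in the whole table. Counted by window the shares were 75.0%, 53.2% and 38.6%. The median count of CG dinucleotides, which every match contains, was 13.5 per window in the set, 14 in genes above background and 6 in the whole table. A match is a run of letters and not a measured site.

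The oxygen-sensing genes held the 2 largest differences. Egln3, a hydroxylase that is itself a strongly induced HIF target, read 8.77 without and 9.31 with homogenate, a log2 difference of 0.54 or 1.46-fold. It ranked 135th from the top of 14069 genes. Hif1a, the oxygen-labile alpha subunit of the best-studied HIF, read 10.56 and 11.09, a log2 difference of 0.53 or 1.44-fold, and ranked 149th. A second, dimmer probeset paired with Hif1a alone read 6.97 and 7.12, a difference of 0.15, so both probesets were higher with homogenate but by unequal amounts. With that second probeset in its place, Hif1a would not have passed 1.2-fold and the count of 3 would be 2. The arrays read RNA, whereas the alpha subunit is mainly controlled as a protein, which was not measured.

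The other oxygen-sensing members read close to level. Epas1, which encodes the alpha subunit of the second HIF, read 7.20 and 7.19, a difference of -0.01. Egln1, the main hydroxylase of the alpha subunits in most cells, read 9.001 and 8.910, a difference of -0.09. Of the 4 genes, Hif1a and Egln3 were thus higher with homogenate and Epas1 and Egln1 were close to level or slightly lower. The wider machinery was also near level in a list of HIF partners and turnover genes. None of its 12 genes above background passed 1.2-fold, against 6.11% of all genes upwards and 6.91% downwards. Of the 12, 5 were higher and 7 lower, and the median was -0.04. Those furthest from 0 were Arnt2, a relative of Arnt, at 0.13, Cited2, a HIF-induced competitor for coactivators, at -0.13, and Hif1an, the asparagine hydroxylase that blocks coactivator binding, at 0.11.

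**Figure D1:**
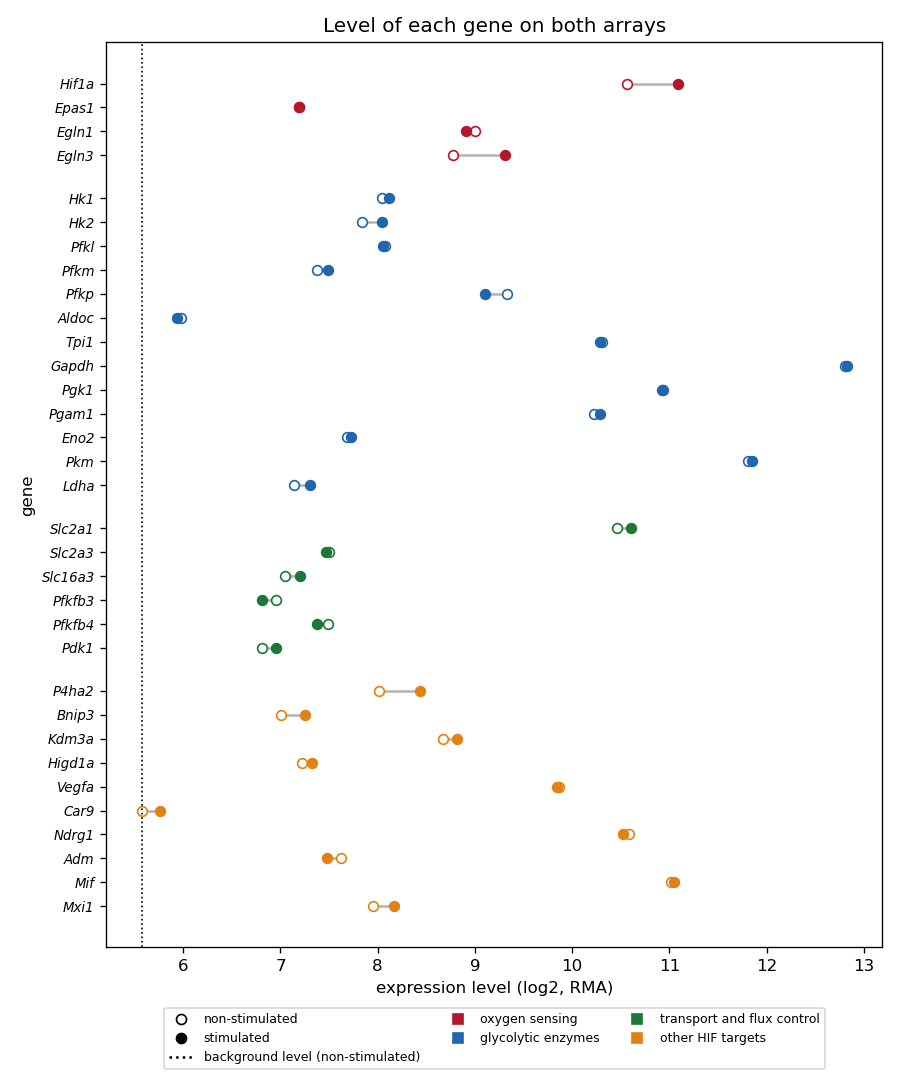
Expression level of the 33 genes (log2, horizontal axis) on the non-stimulated (open circles) and stimulated (filled circles) array, grouped and coloured by role, with the background level of the non-stimulated array as a dotted line. Each circle is 1 array, and the long connecting lines at Hif1a, Egln3 and P4ha2 are the differences of 0.53, 0.54 and 0.42.

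Glycolytic enzymes were close to level. Of 13 measured enzymes, 8 were higher on the stimulated array (61.5%, against 50.2% of all genes above background) and 5 lower. None passed 1.2-fold in either direction, against 6.11% of all genes upwards and 6.91% downwards. The enzymes had a median difference of 0.04, between -0.22 and 0.20. Their median size regardless of sign was 0.04. Over all genes above background it was 0.10, and in the 2 brighter of 4 sets by mean level, which hold 11 of the 13 enzymes, it was 0.083 and 0.069. In those 2 sets, 4.18% and 2.96% of genes passed 1.2-fold upwards, and 3.07% and 2.42% downwards. Following the pathway from glucose, the first step is catalysed by hexokinases. Hk2, the inducible hexokinase, read 7.84 and 8.04, a difference of 0.20 that was the highest of the enzymes, and the constitutive Hk1 read 8.04 and 8.11, a difference of 0.07.

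Phosphofructokinase, the committing step of the pathway, has 3 subunit genes, whose differences were not all of the same sign. Pfkp (the platelet type) read 9.33 and 9.11, a difference of -0.22 or 1.17-fold lower, the lowest of the whole set. Pfkm (the muscle type) read 7.38 and 7.48, a difference of 0.11. Pfkl (the liver type) read 8.08 and 8.05, a difference of -0.03. The values thus spread from -0.22 to 0.11 within 1 enzyme.

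The enzymes of the lower pathway differed less. Aldoc, an aldolase, read 5.97 and 5.94, close to background. Tpi1 (triose phosphate isomerase, 10.31 and 10.29), Gapdh (glyceraldehyde phosphate dehydrogenase, 12.81 and 12.83) and Pgk1 (phosphoglycerate kinase, 10.93 on both arrays) differed by -0.02, 0.02 and -0.0026. The 2 further single-gene probesets of Gapdh, a gene with many pseudogene copies, differed by 0.0070 and -0.01. Pgam1 (phosphoglycerate mutase) read 10.23 and 10.29, Eno2 (an enolase) 7.68 and 7.73, and Pkm (pyruvate kinase) 11.81 and 11.86, all higher by 0.04 to 0.06. The difference was larger at the step to lactate. Ldha, the lactate dehydrogenase subunit that HIF induces, read 7.14 and 7.31, a difference of 0.17 or 1.13-fold. It was dimmer than most of these genes. In its set by mean level the median size regardless of sign was 0.11, beside 0.069 in the brightest set, and Ldha lay inside its set's central 95%.

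Transporters and flux regulators split in direction, with 3 higher and 3 lower of 6 and a median of 0.06. That median turned to -0.030 with the mean of each gene's probesets and to -0.10 with the second-brightest probeset. In both settings Pdk1, a higher gene, fell under background, so those medians leave it out. Slc2a1, the basal glucose transporter, read 10.46 and 10.61, a difference of 0.15, but its other single-gene probeset read 6.22 and 6.02, a difference of -0.20 in the opposite direction. Slc2a3, a high-affinity glucose transporter, read 7.499 and 7.470. Slc16a3, the lactate exporter of glycolytic cells, read 7.05 and 7.20, a difference of 0.15. Pdk1, the kinase that keeps pyruvate out of mitochondria, read 6.81 and 6.95, a difference of 0.14, and its second probeset was far under background on both arrays. Against these, the enzymes that make the activator of phosphofructokinase were lower: Pfkfb3 read 6.96 and 6.81, a difference of -0.15, and Pfkfb4 read 7.49 and 7.38, a difference of -0.10. None of the 6 passed 1.2-fold, against 6.11% of all genes upwards and 6.91% downwards.

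**Figure D2:**
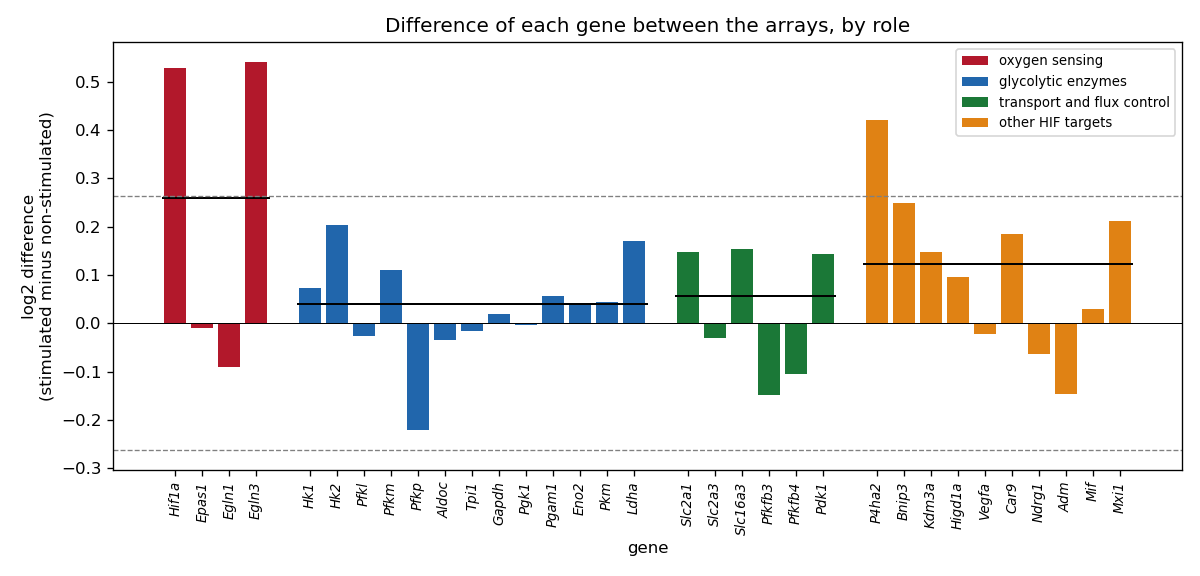
Log2 difference (stimulated minus non-stimulated, vertical axis) of each of the 33 genes, coloured by role. Solid black lines are the medians of the roles (0.26, 0.04, 0.06 and 0.12) and dashed lines mark 1.2-fold, which only Hif1a, Egln3 and P4ha2 pass.

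The other HIF targets were spread more widely than the enzymes. Of 10 measured genes, 7 read higher, against 50.2% of all genes above background, and 3 lower, against 48.2%. The median was 0.12, with differences between -0.15 and 0.42. None passed 1.2-fold downwards, against 6.91% of all genes, and 1 passed it upwards, against 6.11%. That gene was P4ha2, a catalytic subunit of the enzyme that hydroxylates collagen prolines, which read 8.01 and 8.43, a difference of 0.42 or 1.34-fold, at rank 265 of 14069. Bnip3, a mitophagy receptor of the outer mitochondrial membrane, read 7.003 and 7.252, a difference of 0.25. Mxi1, an antagonist of Myc, read 7.95 and 8.17, a difference of 0.21, and its second probeset was higher by 0.17. P4ha2 and Bnip3 have 1 probeset each.

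Kdm3a, a histone demethylase, read 8.67 and 8.82, a difference of 0.15. Higd1a, a small mitochondrial protein induced by hypoxia, read 7.23 and 7.32, a difference of 0.10. Car9, the membrane carbonic anhydrase often used as a hypoxia marker, read 5.57 and 5.76. It was under background on the first of these, so that it was at least 1.13-fold higher, and its second probeset was under background on both arrays. Car9 was thus barely above the background level.

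The remaining 4 targets differed by between -0.15 and 0.03. Vegfa, the vascular endothelial growth factor, read 9.86 and 9.84, a difference of -0.02. Adm (adrenomedullin, a vasodilator peptide) read 7.62 and 7.47, a difference of -0.15. Ndrg1, a stress-induced cytoplasmic protein, read 10.59 and 10.52, a difference of -0.06, and its second probeset differed by -0.13. Mif, a cytokine that hypoxia can induce, read 11.02 and 11.05, a difference of 0.03. The genes P4ha2, Bnip3 and Mxi1 on one side and Vegfa, Adm and Ndrg1 on the other therefore differed in sign between these arrays. Of these genes only P4ha2 passed 1.2-fold.

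Set side by side, the median of the other HIF targets (0.12) was 0.08 above the median of the glycolytic enzymes (0.04). Both lay above the 0.0016 of all genes above background. In the 2 brighter of the 4 sets by mean level, the median was 0.0025 and 0.019. With 1 array per condition the gap of 0.08 has no error. It ranged from 0.05 to 0.09 over 9 other settings, of which leaving out the background filter and centring on the median could not change it. Nor could adding Egln1 and Egln3 to the other targets, as the first lay below their median and the second above it. The groups overlapped: the enzymes Hk2 (0.20) and Ldha (0.17) read above 7 and 6 of the 10 other targets, and Adm (-0.15) read below all enzymes but Pfkp (-0.22). At 1.1-fold, 2 of 13 enzymes (15.4%) and 5 of 10 other targets (50.0%) were higher, against 17.7% of all genes. Among the 5 was Car9, which passed background on the stimulated array only and whose other probeset differed by -0.04. With the background level set where 99% of the receptor probesets lay below it, neither Car9 nor the enzyme Aldoc passed. The medians of the other targets and the enzymes were then 0.10 and 0.04, a gap of 0.05.

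The spread of differences narrows with brightness, so each gene was also set against genes of like mean level. The 14069 genes were divided into 4 sets by mean level. In the brightest set, which holds 14 of the 33 genes, the central 95% of differences lay between -0.25 and 0.29, and Hif1a and Egln3 were above it. In the next set, which holds 10, it lay between -0.29 and 0.32, and P4ha2 was above it. The remaining 30 genes lay inside the central 95% of their set. By construction 2.5% of genes lie on each side, while 3 of 33 genes (9.09%) lay above and none below. Pfkp, at -0.22, was inside the range of the brightest set.

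**Figure D3:**
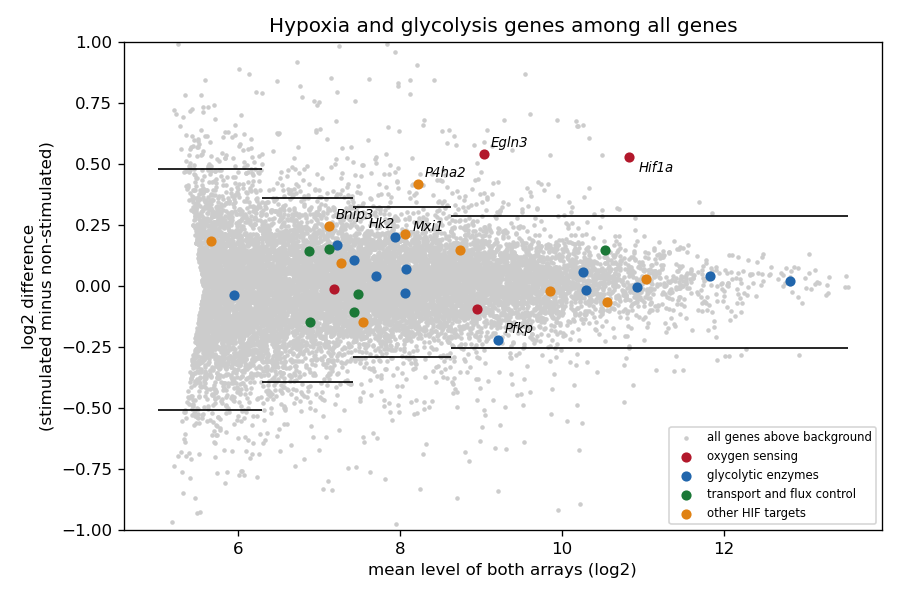
Log2 difference against mean level of both arrays for the 14069 genes above background (grey) and the 33 genes of the set (coloured by role). Short black lines bound the central 95% of differences in each of 4 sets by mean level, and Hif1a, Egln3 and P4ha2 lie above them. The vertical axis ends at -1 and 1, beyond which 33 grey genes lie.

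Further HIF targets from a longer list differed in both directions. Of 30 genes above background, 17 were higher and 13 lower, the median being 0.05, and 5 passed 1.2-fold upwards (16.7%, against 6.11% of all genes) and 1 downwards (3.33%, against 6.91%). The largest difference was Edn1, the vasoconstrictor endothelin, which read 6.36 and 5.84, a difference of -0.52 or 1.43-fold lower. Angptl4, a lipase inhibitor that also answers to fatty acid receptors, read 7.16 and 7.67, a difference of 0.51. Met, the receptor of hepatocyte growth factor, read 7.41 and 7.88, a difference of 0.46. The members named next were chosen after their values were seen. P4ha1, the other main catalytic subunit of collagen prolyl hydroxylase, read 10.35 and 10.32, a difference of -0.04, unlike P4ha2. The other genes past 1.2-fold upwards were Stc1 (a secreted glycoprotein hormone) at 0.42, Pnrc1 at 0.33 and Gbe1 (the glycogen branching enzyme) at 0.26. Ddit4, Ero1a and Ak4, which are common hypoxia markers, differed by -0.02, 0.06 and -0.03. Hilpda, Plod2 and Fam162a of the same list differed by 0.20, 0.15 and 0.15. At 1.1-fold, 9 of the 30 genes (30.0%, against 17.7% of all genes) were higher and 2 (6.67%, against 18.6%) lower.

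HIF targets that handle iron formed a list written with the values of Cp, Hmox1 and Tfrc known, so its counts and median are a description only. Of 6 genes above background, 4 were higher by more than 1.2-fold (66.7%, against 6.11% of all genes) and 2 were near level, with a median of 0.55. Cp (ceruloplasmin, a copper ferroxidase and acute-phase protein) read 7.16 and 9.09, a difference of 1.93. Hmox1, the haem oxygenase that is also a target of oxidative stress, read 9.93 and 10.59, a difference of 0.66. Slc11a2, a ferrous iron importer, read 8.40 and 8.98, a difference of 0.58. Of the rest, named after their values were seen, the transferrin receptor gene Tfrc was higher by 0.53. The iron exporter gene Slc40a1 and the ferroxidase gene Heph differed by -0.02 and -0.01, and Heph read close to background at 5.81 and 5.79. Of the 3 genes whose values were not known beforehand, only Slc11a2 passed 1.2-fold. These genes also answer to pathways other than HIF.

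Isoenzymes and relatives of the members had a median difference, regardless of sign, of 0.22, beside 0.10 for the members. They were also dimmer, with median levels of 7.28 and 7.01 on the 2 arrays against 8.01 and 8.11, and dim genes differ more. In the dimmest of the 4 sets by mean level the median size was 0.15, and 10.9% of genes passed 1.2-fold upwards and 14.1% downwards. Of 17 isoenzymes and relatives above background, 5 read higher and 12 lower, and their median was -0.10. Of the 17, 3 passed 1.2-fold upwards (17.6%, against 6.11% of all genes) and 5 downwards (29.4%, against 6.91%). Of these, named after their values were seen, Hk3, Slc2a4 and Pdk4 were under background on 1 array. They were at least 1.02-fold higher, 1.16-fold lower and 1.21-fold lower, so that Hk3 and Slc2a4 do not pass 1.2-fold at their bound. Slc16a7, also among those past 1.2-fold downwards, read 5.96 and 5.70, close to background. Eno3, the muscle enolase, read 8.03 and 7.41, a difference of -0.62 or 1.54-fold lower, whereas Eno2 differed by 0.04. Slc16a1, the main monocarboxylate transporter for lactate entry and exit, read 7.88 and 8.41, a difference of 0.53, larger than the 0.15 of Slc16a3. Slc2a6, a glucose transporter relative found in lysosomes of inflammatory cells, read 6.19 and 6.58, a difference of 0.40. Ldhb, the subunit that favours pyruvate and was named after its values were seen, read 7.29 and 7.01, a difference of -0.28, opposite in sign to Ldha (0.17).

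The pentose phosphate pathway branches from glycolysis after hexokinase and makes NADPH and ribose. All 6 of its genes with a value read higher with homogenate by some amount, against 50.2% of all genes above background. Of the 6, 2 passed 1.2-fold (33.3%, against 6.11%), and the median was 0.19 between 0.04 and 0.37. H6pd, the glucose 6-phosphate dehydrogenase of the endoplasmic reticulum, read 7.55 and 7.92, a difference of 0.37. Rpia, the ribose phosphate isomerase, read 6.48 and 6.77, a difference of 0.29. Pgd, the second NADPH-producing enzyme, read 10.20 and 10.41, a difference of 0.21. The main cytosolic dehydrogenase gene G6pdx and the transketolase gene Tkt are not analysed here.

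**Figure D4:**
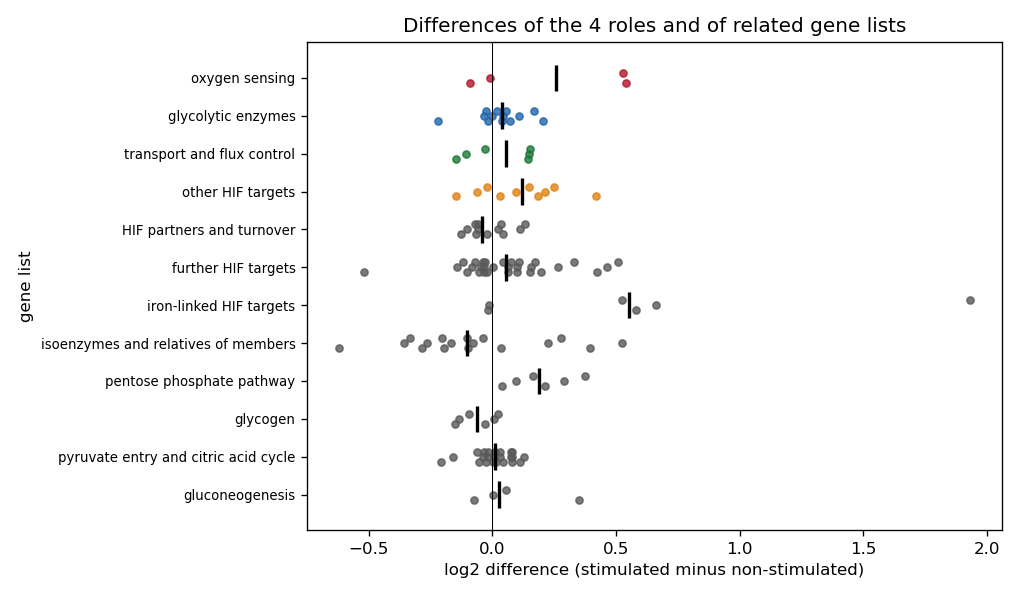
Log2 difference (stimulated minus non-stimulated, horizontal axis) of each gene above background in the 4 roles (coloured) and in 8 related lists (grey), with a vertical black bar at each median. Medians run from -0.10 (isoenzymes and relatives) to 0.55 (iron-linked HIF targets), and the point furthest right is Cp at 1.93.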

How the data were processed

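RNA of 3 pooled cultures per condition was read on 1 array each, per the series design text. The values are the authors' deposited log2 values, made with Affymetrix Expression Console and RMA per the submitters' processing notes, (versions not given in the sources used here). This method sets both arrays to one distribution, and their sorted values differed by at most 0.0757, so differences are relative to all probesets. Of 41345 probesets, 23521 had exactly 1 gene in the platform annotation, 1814 had several and 16010 were not listed, and only the first were named. Identifiers of 23328 matched the RefSeq gene table. The probeset with the highest mean stood for a gene. No test between conditions was possible.

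The members and lists were chosen with earlier results of these data known. All members are described, with up to 3 genes of each related list that differ most; further genes of these lists were named after their values were seen. Functions were tested on simulated data with planted differences. Python 3.11.15, pandas 2.3.3 and statsmodels 0.14.6 were used. Alternatives covered background level, probeset choice, centring, thresholds and grouping.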

Additional observations from a re-analysis of the deposited data

How the results depend on the processing

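Of 67 recomputed medians, gaps and counts, 57 kept their value within 0.05 on the log2 scale, or their count within 1.5 times. That tolerance is wider than the medians of the enzymes and of all members (both 0.04), which could fall to 0 and still count as kept. The gap of 0.08 counted as kept at 0.05. Some of the 67 could not change. All 33 genes passed the background level, so the 8 values without that filter were fixed. Centring on the median shifted all genes by 0.0016, so it could not move a median or gap by 0.05. The median of the oxygen-sensing genes (0.26) was 0.16 with the mean of each gene's probesets, 0.069 with the second-brightest probeset (a choice made after the data were seen) and 0.53 without the member farthest from the median. That of transport and flux control (0.06) was -0.030, -0.10 and 0.14 under the same settings. Under both probeset settings Pdk1 fell under background and left the median of its group, and so did Car9 among the other HIF targets. Slc2a1 and Pdk1 changed sign under both probeset settings, and Car9 with the second-brightest. Counts past a fold were 12 higher and 3 lower at 1.1-fold, and 0 higher at 1.5-fold and at 2-fold, which follows from the threshold. Centring on the median or on a lowess trend moved no gene's difference by more than 0.021. The cause of the disagreement between probesets was not tested. No paired analysis was possible because each condition has 1 array. With 1 pool per condition no difference can be set against a replicate spread, and Car9 and Aldoc lie near background.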

Other observations

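The citric acid cycle, glycogen and gluconeogenesis lists had medians between -0.06 and 0.03. Of 23 genes of pyruvate entry and the citric acid cycle, 14 were higher (60.9%, against 50.2% of all genes above background) and 9 lower. The median was 0.01, and none passed 1.2-fold, against 6.11% of all genes upwards and 6.91% downwards. Their median levels were 9.32 and 9.33 on the 2 arrays. In the brightest of the 4 sets by mean level, 57.0% of genes were higher, and 2.96% passed 1.2-fold upwards and 2.42% downwards. Furthest from 0 among the 23 were Idh3g (a subunit of isocitrate dehydrogenase) at -0.21 and Sdhc (a membrane subunit of succinate dehydrogenase) at -0.16. Pdp1 (a phosphatase that activates pyruvate dehydrogenase, the counterpart of Pdk1) followed at 0.13. Of 6 glycogen genes above background, 2 read higher and 4 lower, around a median of -0.06. Gyg (glycogenin, the primer of glycogen), Pygl and Pygb (glycogen phosphorylases) differed by -0.15, -0.13 and -0.09.

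Of 4 gluconeogenic genes above background, 3 read higher and 1 lower, around a median of 0.03. Pck2, the mitochondrial carboxykinase, differed by -0.07 and Pcx (pyruvate carboxylase) by 0.06. Fbp2, the muscle fructose bisphosphatase, read 5.34 and 5.69, under background without homogenate, so that it was at least 1.08-fold higher.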
